A study of Mus musculus with 2 samples.

Results

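The transcripts described here belong to 10 genes of the feedback arm of fibroblast growth factor (FGF) and extracellular signal-regulated kinase (ERK) signaling, out of 30905 genes counted in single cells of the mouse retina at postnatal day 7. They are the phosphatases Dusp4, Dusp6 and Dusp10, the Sprouty genes Spry1, Spry2 and Spry4, the Sprouty-related gene Spred1, the transcription factors Etv4 and Etv5, and Phlda1. The genes were picked by what they are known to do, and they were chosen from a reading of these same libraries in which the lower levels of Dusp10 and Phlda1 in the mutant were already known. Ratios between the libraries are therefore given as a description, with no test, and all 10 genes are accounted for whether they differed or not. The study had deleted Mettl3, the catalytic subunit of the enzyme that writes N6-methyladenosine (m6A) on mRNA, in retinal progenitor cells (RPCs) by crossing floxed alleles to Six3-Cre (Mettl3-CKO, Six3-Cre+; Mettl3 floxed/floxed). Six3-Cre acts in the progenitors of the developing retina, and the study followed the loss of the protein in central retina whereas these libraries came from whole retinas. Controls, labelled Ctrl, were pups of the same litter, whose alleles the labels do not list. Of each group, 2 retinas from 2 pups of 1 litter were digested with papain and mixed, so that each genotype is 1 library and no library-to-library error can be given.

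FGFs bind receptor tyrosine kinases and activate Ras, Raf, MEK and ERK, and active ERK turns on genes that hold the pathway in check. Dual-specificity phosphatases remove phosphate from the kinases, Sprouty and Spred proteins block signaling near Ras, and Etv4 and Etv5 carry the signal to target genes. In the retina, FGF signaling acts in progenitors and in the Müller glia that arise from them. The levels of some of these feedback transcripts, such as Dusp6 and Spry2, are widely used as a readout of ERK activity.

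The control library held 22181683 unique molecular identifiers (UMIs, 1 per captured transcript) in the 3994 cells that could be read completely, and the Mettl3-CKO library 20830028 UMIs in 3109 cells, with medians of 4766 and 5441 UMIs per cell. Mettl3 itself was at 39.5 UMIs per 1000000 (CPM) in the control and 33.1 CPM in the mutant. UMIs of the 3′ end can persist when an inner exon is lost, so this is a weak check of the labels. Cells were placed in classes by UMIs of marker genes that do not include the 10 genes: Müller-like cells (259 control and 173 mutant), cycling progenitor-like cells (174 and 277), neurogenic cells (155 and 178) and precursor-like cells of rods and bipolar cells (426 and 414). The genes that led each class by fold included markers that defined it, which the rule fixed, and genes that had no part in the rule, such as Npy and Cyp26a1 in Müller-like, the mitotic kinases Plk1 and Aurkb in progenitor-like, Gadd45g in neurogenic and Dusp4 in precursor-like cells. All 10 Müller markers were detected in Müller-like cells, while Aqp4, a water channel of mature Müller glia, had only 1 and 3 UMIs in Müller-like cells. The summed level of the 10 Müller markers (Rlbp1, Glul, Slc1a3, Dkk3, Aqp4, Car14, Kcnj10, Apoe, Vcam1 and Clu) was 6904 CPM in control and 5247 CPM in mutant Müller-like cells, with Rlbp1 at a ratio of 0.600 (0.566 to 0.636), and its part in the results below was not tested. Minimums of marker UMIs are cuts in a range: with the minimums raised 1.5-fold, 38 control and 31 mutant cells leave the Müller-like class.

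In the control library the feedback genes were a feature of glia and progenitors more than of photoreceptors. Their summed level was 851 CPM (813 to 891, 1880 UMIs) in Müller-like cells, 562 CPM (527 to 598, 975 UMIs) in progenitor-like cells, 496 CPM (459 to 535, 660 UMIs) in neurogenic cells and 346 CPM (324 to 369.5, 921 UMIs) in precursor-like cells. The sum was 4.93-fold (4.58 to 5.31) higher in Müller-like than in rod-like cells, and each step down in this order was larger than the counting error. Spry2 and Dusp6 gave 542 and 362 of the 1880 UMIs in Müller-like cells, and single genes departed from the order of the sum. Dusp4 went against this order, with its highest level among these classes in the precursors. Dusp10 was highest in neurogenic cells, and Spry1 and Spred1 were higher there than in progenitor-like cells. Etv4 was higher in progenitor-like than in Müller-like cells. Some of these differences had overlapping intervals. UMIs come from the 3′ end of transcripts and do not scale with transcript length, so levels are compared between classes and libraries for the same gene.

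Among the phosphatases, Dusp6, a cytoplasmic phosphatase specific for ERK, was at 164 CPM (147 to 182, 362 UMIs) in control Müller-like cells and at 128, 96.2 and 90.6 CPM in progenitor-like, neurogenic and precursor-like cells. The step from Müller-like to progenitor-like cells was 1.28-fold (1.08 to 1.51), and neurogenic and precursor-like cells had overlapping intervals. Dusp10, whose protein acts mainly on the stress kinases p38 and JNK, was at 43.0 CPM (34.8 to 52.6, 95 UMIs) in Müller-like cells, 34.6 CPM (26.4 to 44.5, 60 UMIs) in progenitor-like cells and 57.9 CPM (45.7 to 72.3, 77 UMIs) in neurogenic cells. It was then nearly absent, with 3 UMIs in all precursor-like and 11 UMIs in all rod-like control cells. Neurogenic cells exceeded progenitor-like cells by 1.67-fold (1.18 to 2.39), while Müller-like cells and either of the other classes had overlapping intervals. Dusp4, a nuclear phosphatase of ERK and JNK, ran the other way, from 2.88 CPM in progenitor-like and 4.53 CPM in Müller-like cells through 18.8 CPM in neurogenic cells to 103 CPM (91.6 to 116, 275 UMIs) in precursor-like cells. Precursor-like cells were 35.9-fold (15.2 to 112) above progenitor-like cells and 11.1-fold (8.37 to 14.9) above rod-like cells, and Dusp4 was the second of the genes that led the precursor-like class by fold although it had no part in defining it.

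The Sprouty and Spred genes, which restrain Ras, differed in how steeply they stepped down from glia. Spry2 was at 245 CPM (225 to 267, 542 UMIs) in control Müller-like cells, 1.58-fold (1.37 to 1.84) above progenitor-like cells, and remained at 103 CPM in rod-like cells. Spry1 was at 39.8 CPM (32.0 to 49.1, 88 UMIs) in Müller-like and the same 39.8 CPM in neurogenic cells, above 24.8 CPM in progenitor-like cells and 7.90 CPM in precursor-like cells. Spred1 had overlapping intervals in the first 3 classes, at 108, 92.1 and 98.4 CPM, and was at 50.03 CPM in precursor-like cells. Spry4 was sparse throughout, with 41 UMIs in Müller-like cells (18.6 CPM) and 5 UMIs in rod-like cells.

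Etv4 and Etv5, transcription factors of the ETS family that FGF signaling turns on, were nearly limited to glia and progenitors. Etv5 was at 85.1 CPM (73.4 to 98.2, 188 UMIs) in Müller-like, 63.9 CPM in progenitor-like and 15.8 CPM in neurogenic cells of the control, and precursor-like cells were 32.3-fold below Müller-like cells. Etv4 had 26 UMIs in Müller-like and 29 UMIs in progenitor-like cells (11.8 and 16.7 CPM, overlapping intervals) and 0 UMIs in control neurogenic and precursor-like cells, where a count of 0 allows up to 3 UMIs. Phlda1, which encodes a pleckstrin homology-like domain protein and is transcribed in response to ERK, was the gene with the steepest step between progenitors and glia. It was at 131 CPM (117 to 147, 290 UMIs) in Müller-like and 29.9 CPM (22.4 to 39.3, 52 UMIs) in progenitor-like control cells, a gap of 4.38-fold (3.25 to 6.01), and near 5.64 CPM in precursor-like and rod-like cells. In the 24 amacrine-like control cells it reached 93.0 CPM on 22 UMIs.

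**Figure D1:**
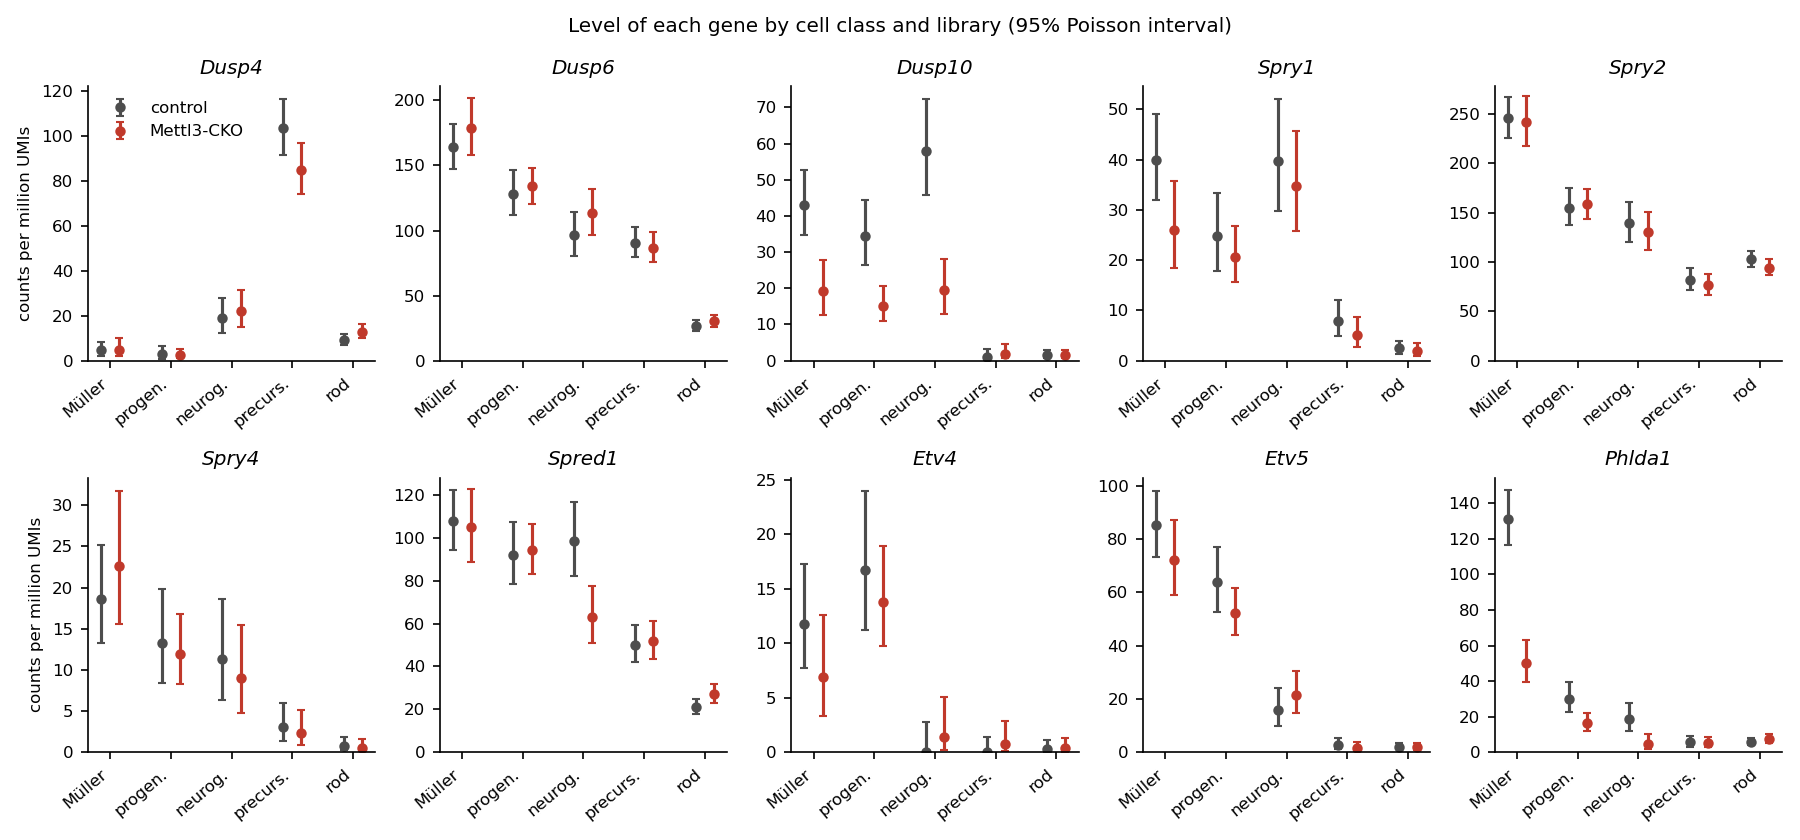
Level of each of the 10 genes in CPM (y axis, from 0, a scale of its own for each gene) in Müller-like, progenitor-like, neurogenic, precursor-like and rod-like cells (x axis). Points are the control and the Mettl3-CKO library and bars are exact Poisson 95% intervals, which cover counting error only. Dusp4 peaks in precursor-like cells, Phlda1 in control Müller-like cells at 131 CPM, and the mutant points of Phlda1 and Dusp10 lie below those of the control in Müller-like, progenitor-like and neurogenic cells.

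In the genome build GRCm38 (GENCODE vM21), Phlda1 (ENSMUSG00000020205) lies at chr10:111506286-111508645 on the plus strand, Dusp10 (ENSMUSG00000039384) at chr1:184013302-184075636 on the plus strand, Spry1 (ENSMUSG00000037211) at chr3:37639947-37644598 on the plus strand, Dusp6 (ENSMUSG00000019960) at chr10:99263231-99267489 on the plus strand and Spry2 (ENSMUSG00000022114) at chr14:105891947-105896819 on the minus strand. The 250 bases before the start of the RefSeq transcript (build GRCm38.p6) are shown for the 2 genes of lower ratio in mutant Müller-like cells that the RefSeq table used here holds, Dusp10 and Spry1, and for 2 well counted genes near a ratio of 1, Dusp6 and Spry2. Of the 10 genes, 6 have an entry in that table, and Dusp4, Spry4, Etv4 and Phlda1 are named only. Each window is read 5′ to 3′ toward the start, in lower case, and capitals mark the word CGGAA on either strand. It is 1 form of the site bound by ETS factors such as Etv4 and Etv5. The shorter core GGAA was not searched and is not marked.
Dusp10 (chr1:184034131-184034380, plus strand): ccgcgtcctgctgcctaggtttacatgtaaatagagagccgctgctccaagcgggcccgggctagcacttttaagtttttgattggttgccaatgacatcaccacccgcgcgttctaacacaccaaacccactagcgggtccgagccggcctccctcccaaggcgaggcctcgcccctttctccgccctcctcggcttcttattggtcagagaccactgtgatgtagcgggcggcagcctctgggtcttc
Spry1 (chr3:37639697-37639946, plus strand): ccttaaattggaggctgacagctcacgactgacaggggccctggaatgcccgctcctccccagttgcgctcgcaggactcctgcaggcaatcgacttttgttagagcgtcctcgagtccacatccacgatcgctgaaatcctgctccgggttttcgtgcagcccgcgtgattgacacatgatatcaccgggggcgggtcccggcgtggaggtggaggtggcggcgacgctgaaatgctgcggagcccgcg
Dusp6 (chr10:99262981-99263230, plus strand): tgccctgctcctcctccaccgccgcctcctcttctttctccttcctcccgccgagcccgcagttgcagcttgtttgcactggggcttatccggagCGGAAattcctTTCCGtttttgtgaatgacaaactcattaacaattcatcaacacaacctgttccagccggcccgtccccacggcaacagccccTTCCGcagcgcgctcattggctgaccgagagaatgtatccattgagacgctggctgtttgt
Spry2 (chr14:105896820-105897069, minus strand): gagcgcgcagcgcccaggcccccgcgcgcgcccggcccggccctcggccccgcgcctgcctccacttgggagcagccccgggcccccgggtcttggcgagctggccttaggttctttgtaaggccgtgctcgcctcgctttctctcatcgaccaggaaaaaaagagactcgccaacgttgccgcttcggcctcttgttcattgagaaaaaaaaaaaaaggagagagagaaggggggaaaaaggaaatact
The word CGGAA occurred 3 times in the Dusp6 window, with its base farthest from the start 155, 144 and 61 bases before it. It occurred once in the Spred1 window, and not in the windows of Dusp10, Spry1, Spry2 and Etv5, which may still hold GGAA after another base. It is a short word that 25.2% of 32851 windows of this length hold, against 2 of the 6 genes with an entry. The longer form CCGGAA, which contains CGGAA, the AP-1 word TGANTCA and the CRE word TGACGT were each searched on both strands. They were in 12.03%, 6.75% and 6.47% of all windows and in none of these 6 genes' windows. The Dusp10 window lies inside the GENCODE span of Dusp10 given above, which begins upstream of it. The gene 1700056E22Rik overlaps that span on the other strand.

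In mutant Müller-like cells Phlda1, Dusp10 and Spry1 were lower than in the control, while Dusp6, Spry2 and Spred1 were near their control level. Phlda1 was at 131 CPM (117 to 147, 290 UMIs) in the control and 50.1 CPM (39.2 to 62.9, 73 UMIs) in the mutant, a ratio of 0.381 (0.291 to 0.494). The intervals of the libraries lie far apart, and 11 of 8102 genes with at least 50 UMIs in these cells had a lower ratio. Dusp10 went from 43.0 CPM (34.8 to 52.6, 95 UMIs) to 19.2 CPM (12.8 to 27.8, 28 UMIs), a ratio of 0.446 (0.282 to 0.687), with 27 genes lower. Spry1 went from 39.8 CPM (32.0 to 49.1, 88 UMIs) to 26.1 CPM (18.4 to 35.8, 38 UMIs), a ratio of 0.654 (0.435 to 0.967) whose upper bound comes close to 1. Of the 8 genes with at least 50 UMIs over both libraries, these 3 were at least 1.5-fold lower and 0 at least 1.5-fold higher, beside a background in which 4.2% of all genes were lower and 8.02% higher by that measure. Since the choice of the genes drew on these ratios, nothing is read from that count, nor from the ranks of Phlda1 and Dusp10 in any class.

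Dusp6 and Spry2, classical targets of FGF signaling, were close to the control. Dusp6 was at 164 CPM in the control and 179 CPM in the mutant, a ratio of 1.09 (0.928 to 1.28), and Spry2 at 245 and 241 CPM, a ratio of 0.984 (0.858 to 1.13). These are the most richly counted of the genes, so their intervals leave out a change of 1.5-fold in either direction. Spred1 had a ratio of 0.974 (0.790 to 1.20), Spry4 one of 1.22 (0.747 to 1.98) on 41 and 33 UMIs, and Etv5 one of 0.846 (0.660 to 1.08). Under 50 UMIs, Etv4 went from 26 to 10 UMIs, a ratio of 0.583 (0.251 to 1.25), and Dusp4 was at 10 and 7 UMIs. The summed level was 851 CPM (813 to 891, 1880 UMIs) and 727 CPM (684 to 772, 1060 UMIs), a ratio of 0.854 (0.791 to 0.921). Without Phlda1 and Dusp10, a sum formed after the values were seen, the ratio was 0.972 (0.895 to 1.05). The median log2 ratio of the 10 genes was -0.14, against 0.037 over the 8102 genes with at least 50 UMIs, and it turned to 0.074 with cells thinned to 2000 UMIs.

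Cycling progenitor-like cells showed the same 2 genes lower, with Spry1 close to its control level. Dusp10 was at 34.6 CPM (26.4 to 44.5, 60 UMIs) in the control and 15.3 CPM (10.99 to 20.6, 42 UMIs) in the mutant, a ratio of 0.441 (0.290 to 0.666). Phlda1 was at 29.9 CPM (22.4 to 39.3, 52 UMIs) and 16.3 CPM (11.9 to 21.9, 45 UMIs), a ratio of 0.546 (0.358 to 0.829). For both genes the intervals of the libraries do not overlap. Of 9 genes with at least 50 UMIs these were the 2 at least 1.5-fold lower and 0 were higher, beside 2.34% and 7.73% of all genes. Spry1 had a ratio of 0.836 (0.553 to 1.27) there, and Dusp6, Spry2 and Spred1 had ratios of 1.04 (0.881 to 1.24), 1.02 (0.876 to 1.19) and 1.02 (0.838 to 1.26). Etv5, at 0.818 (0.634 to 1.06), Etv4, at 0.826 (0.496 to 1.39), and Spry4, at 0.905 (0.515 to 1.61), had intervals that include 1. The sum was 562 CPM (527 to 598, 975 UMIs) and 519.6 CPM (493 to 547, 1431 UMIs), a ratio of 0.925 (0.852 to 1.005), or 0.982 (0.901 to 1.07) without Phlda1 and Dusp10. The median log2 ratio was -0.22, or -0.26 over the 9 genes with at least 50 UMIs, against 0.046 over 8732 genes, and it turned to 0.049 with cells thinned to 2000 UMIs.

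Neurogenic cells, which express Neurog2, Dll1 and Olig2 as they leave the cycle, held the lowest ratio of Dusp10. It was at 57.9 CPM (45.7 to 72.3, 77 UMIs) in the control and 19.4 CPM (12.9 to 28.1, 28 UMIs) in the mutant, a ratio of 0.336 (0.210 to 0.524), and 3 of 7172 genes were lower. Spred1 was at 98.4 CPM (82.3 to 117, 131 UMIs) and 63.2 CPM (50.8 to 77.5, 91 UMIs), a ratio of 0.641 (0.485 to 0.845), in a class where Spry1, at 0.871 (0.580 to 1.31), and Spry2, at 0.938 (0.762 to 1.16), had intervals that include 1. With every cell thinned to 2000 UMIs, which keeps a fraction of the counts, the log2 ratio of Spred1 turned to 0.084. These were 2 genes at least 1.5-fold lower and 0 higher of 7 counted well enough, beside 3.83% and 6.79% of all genes. Phlda1 went from 25 to 7 UMIs, a ratio of 0.259 (0.0944 to 0.615), and stayed under the minimum of 50 UMIs. Dusp6, at 1.18 (0.927 to 1.49), Dusp4, at 1.18 (0.679 to 2.08), and Etv5, at 1.36 (0.759 to 2.50), had ratios above 1 with intervals that include it. Spry4 had 15 and 13 UMIs and Etv4 0 and 2. The sum had a ratio of 0.846 (0.757 to 0.947), from 496 CPM (459 to 535, 660 UMIs) to 419.8 CPM (387 to 455, 605 UMIs), and one of 0.943 (0.838 to 1.06) without Phlda1 and Dusp10. The median log2 ratio of the 9 genes with a ratio was -0.20, or -0.092 over the 7 with at least 50 UMIs, against 0.022 over all genes that met the same minimum.

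In precursor-like cells, on the way to rods and bipolar cells, the 4 well counted genes stayed within 1.5-fold. Dusp4, the gene that peaks there, was at 103 CPM (91.6 to 116, 275 UMIs) in the control and 84.9 CPM (74.0 to 97.0, 218 UMIs) in the mutant, a ratio of 0.821 (0.684 to 0.985). Its fold over progenitor-like cells was 35.9-fold (15.2 to 112) in the control and 33.4-fold (15.9 to 84.1) in the mutant, with widely overlapping intervals. Dusp6 had a ratio of 0.959 (0.795 to 1.15), Spry2 one of 0.931 (0.764 to 1.13) and Spred1 one of 1.04 (0.808 to 1.33). These 4 genes were the ones with at least 50 UMIs, and 0 of them were 1.5-fold lower or higher, beside 2.27% and 4.25% of all genes. The summed level was 346 CPM (324 to 369.5, 921 UMIs) and 317 CPM (295 to 339, 813 UMIs), a ratio of 0.914 (0.831 to 1.01), with a median log2 ratio of -0.16 over the 9 genes with a ratio, -0.082 over the 4 with at least 50 UMIs and -0.0061 over all genes. The median of the 9 turned to 0.18 with only mutant cells that had Y-linked UMIs. The remaining 6 genes had between 0 and 21 UMIs in the control, with Spry1 at a ratio of 0.641 (0.295 to 1.34) on 21 and 13 UMIs and Etv5 at 0.592 (0.127 to 2.33) on 7 and 4. Phlda1, low in these cells, was at a ratio of 0.898 (0.393 to 2.02), and rod-like cells gave 1.30 (0.815 to 2.09), where it was at 5.66 and 7.38 CPM.

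**Figure D2:**
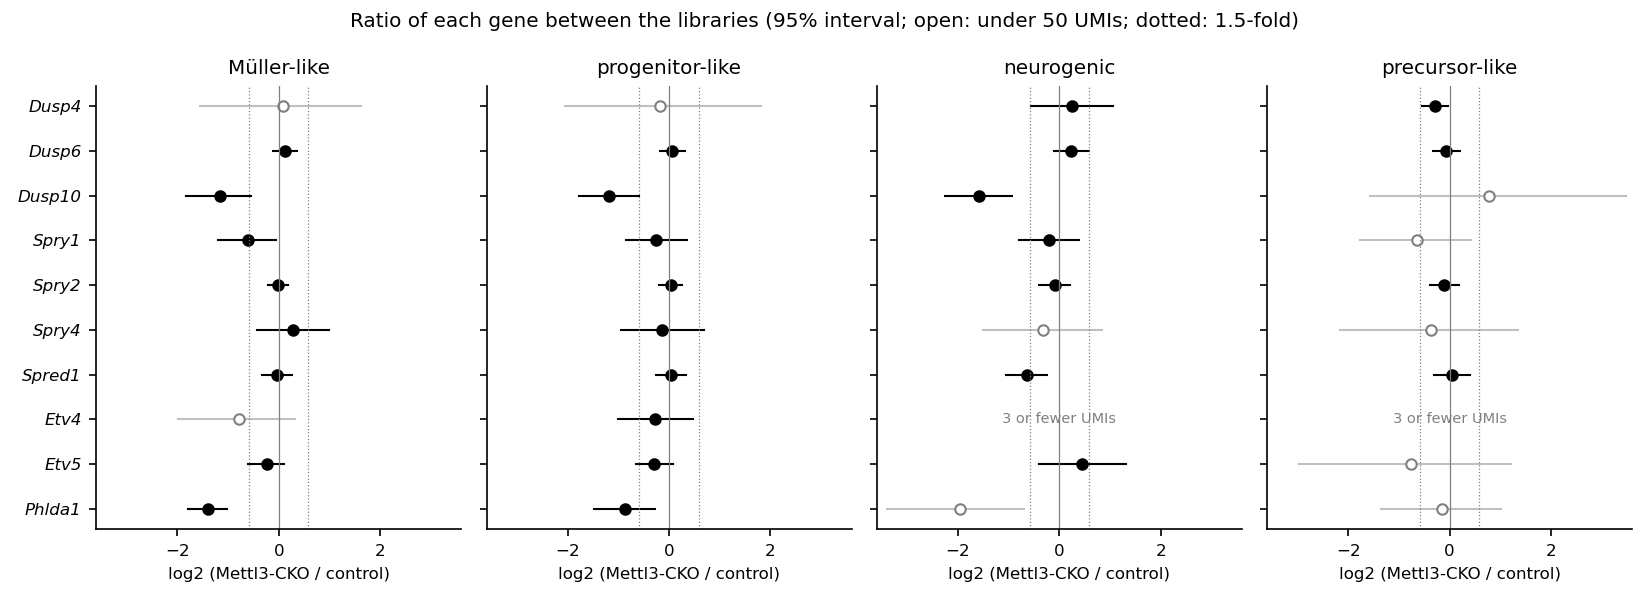
Log2 ratio of the Mettl3-CKO over the control library (x axis) for each of the 10 genes (y axis) in Müller-like, progenitor-like, neurogenic and precursor-like cells, with exact conditional binomial 95% intervals. Open points have under 50 UMIs over both libraries, and dotted lines mark 1.5-fold. Phlda1 and Dusp10 lie left of the line in the first 3 classes, while Dusp6 and Spry2 stay near 0 in all 4.

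Without thinning, the lower levels came with fewer cells that had any UMI of the gene. Phlda1 was seen in 39.4% (33.4 to 45.6) of control and 18.5% (13.0 to 25.1) of mutant Müller-like cells, whose median depths were 8784 and 8194 UMIs. With each cell thinned to 4000 UMIs, a depth chosen after the data had been seen, which left out 32 and 11 shallower cells, the shares were 29.1% (23.3 to 35.4) and 11.7% (7.21 to 17.7). Rod-like cells, which serve as a measure of free RNA, had a Phlda1 UMI in 2.33% (1.62 to 3.24) and 3.55% (2.47 to 4.92) of cells at median depths of 4258 and 4609 UMIs, so most of the glial signal in both libraries stood above that background. Among cells with a UMI the mean was 2.84 and 2.28 UMIs, the highest cell held 11 and 7 UMIs, and 37 and 11 cells had at least 3.

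Dusp10 was seen in 29.3% (23.9 to 35.3) of control and 14.5% (9.58 to 20.6) of mutant Müller-like cells, in 24.1% (18.0 to 31.2) and 11.9% (8.34 to 16.3) of progenitor-like cells and in 30.3% (23.2 to 38.2) and 12.4% (7.91 to 18.1) of neurogenic cells, where single cells held up to 9 UMIs in the control and 3 in the mutant. At 4000 UMIs per cell the shares were 12.3% (8.36 to 17.3) and 5.56% (2.57 to 10.3) in Müller-like, 10.7% (6.26 to 16.9) and 6.49% (3.68 to 10.5) in progenitor-like and 18.7% (12.8 to 25.8) and 10.4% (6.28 to 15.9) in neurogenic cells, and in rod-like cells without thinning they were 0.684% (0.329 to 1.26) and 0.938% (0.430 to 1.77). At 1000 UMIs per cell the Dusp10 shares were 4.25% (2.14 to 7.47) and 0.578% (0.0146 to 3.18) in Müller-like cells. They were 2.92% (0.956 to 6.69) and 2.57% (1.04 to 5.23) in progenitor-like cells. In neurogenic cells they were 4.55% (1.85 to 9.14) and 2.25% (0.616 to 5.65), and in each of these classes the intervals overlapped. Dusp4 was seen in 37.1% (32.5 to 41.9) and 34.5% (29.96 to 39.3) of precursor-like cells without thinning. A UMI of any of the 10 genes was present in 93.8% (90.2 to 96.4) of control and 96.0% (91.8 to 98.4) of mutant Müller-like cells, and at 1000 UMIs per cell in 59.1% (52.8 to 65.1) and 52.0% (44.3 to 59.7), against 13.7% (11.99 to 15.6) and 12.02% (10.0 to 14.2) of rod-like cells. Nearly all Müller-like cells of both genotypes thus held a UMI of at least 1 of the genes.

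Phlda1 was higher with each step toward glia in both libraries. Progenitor-like and Müller-like cells were pooled and cut at 24.1 and 43.7 glial marker UMIs per 10000 UMIs, limits that divide the control cells evenly (144, 144 and 145 cells) and the mutant cells unevenly (272, 138 and 40 cells). From low to high, Phlda1 was at 25.2, 79.7 and 165 CPM in the control and at 10.8, 45.0 and 96.0 CPM in the mutant. At each level the mutant was lower, with ratios of 0.428 (0.252 to 0.722), 0.565 (0.402 to 0.787) and 0.580 (0.386 to 0.845). Rlbp1, a glial marker that entered the cut, had ratios of 0.774 (0.680 to 0.883), 0.693 (0.642 to 0.748) and 0.951 (0.873 to 1.03), the last with an interval that includes 1. The cut did not fully match the libraries in glial level. From low to high, the median glial marker UMIs per 10000 were 15.6, 34.6 and 56.7 in the control and 14.2, 31.7 and 53.2 in the mutant. The part of this gap in the ratios was not tested.

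Dusp10 had similar levels along this axis in the control, at 37.9, 35.6 and 44.8 CPM, and its ratios were 0.336 (0.211 to 0.528), 0.676 (0.414 to 1.09) and 0.401 (0.141 to 0.931), the last on 6 mutant UMIs. Spry2 went from 144 to 277 CPM in the control, with ratios of 1.05 (0.885 to 1.25), 1.18 (1.003 to 1.40) and 0.887 (0.689 to 1.13). Dusp6 stood out at the glial end, where it was at 173 CPM in the control and 255 CPM in the mutant, a ratio of 1.48 (1.13 to 1.91) over 40 mutant cells. The sum of the 10 genes had ratios of 0.932 (0.851 to 1.02), 0.977 (0.891 to 1.07) and 0.952 (0.836 to 1.08), and all of these intervals include 1.

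**Figure D3:**
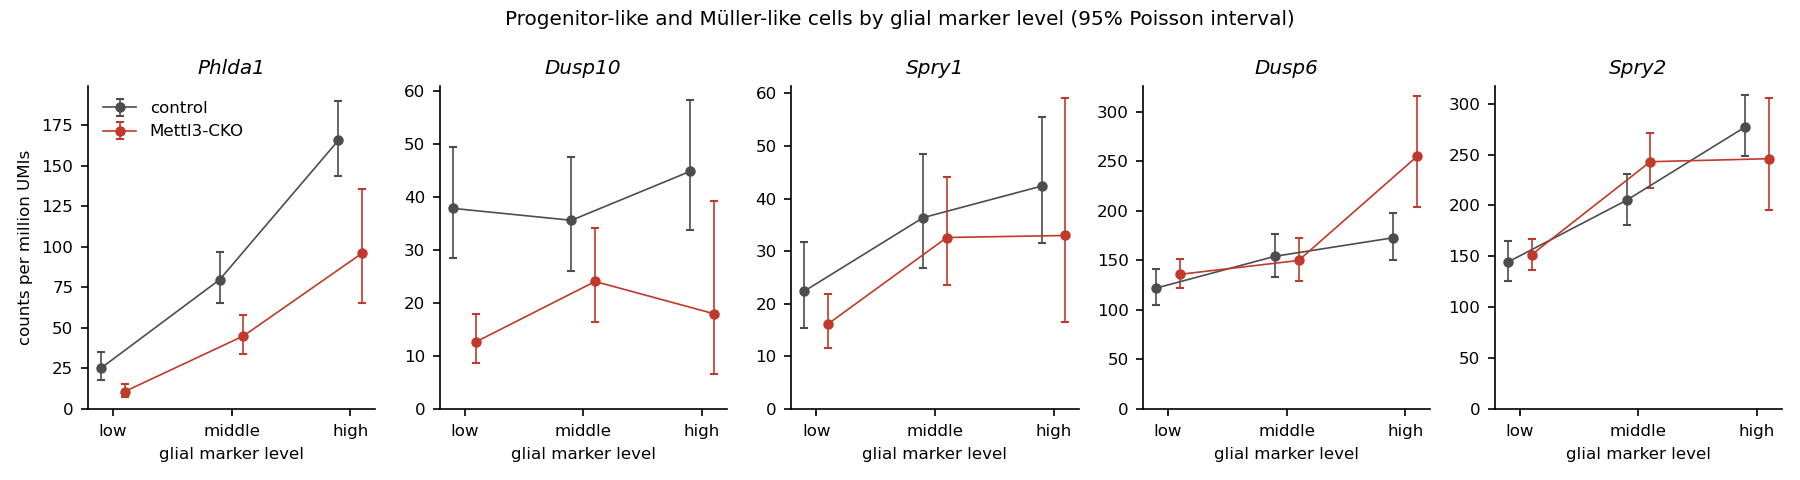
Levels in CPM (y axis, from 0) of Phlda1 and other genes in progenitor-like and Müller-like cells pooled and cut into low, middle and high glial marker level (x axis), with Poisson 95% intervals. Phlda1 climbs from 25.2 to 165 CPM in the control and from 10.8 to 96.0 CPM in the mutant, below the control at every level.

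The libraries held cells of different sexes, and Phlda1 was not equally low in the kinds of mutant cells. In the control, 0.751% of all cells had a UMI of Xist, the RNA of the inactive X chromosome, and 62.9% had a Y-linked UMI and none of Xist. In the mutant these shares were 56.3% and 23.3%, and 220 cells had both. Of the Müller-like cells, 0 of 259 in the control and 98 of 173 in the mutant had Xist. Sex thus differs along with genotype in the ratios between whole libraries, and its part in them was not tested. Phlda1 in Müller-like cells was at 35.2 CPM (29 UMIs) in the 98 mutant cells with Xist and at 76.4 CPM (42 UMIs) in the 60 with Y-linked UMIs. Relative to the whole control class the ratios were 0.268 (0.176 to 0.393) and 0.582 (0.410 to 0.806), and the first kind of cells was at 0.461 (0.277 to 0.758) of the second. Both kinds lay below the control, by unequal amounts.

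Dusp10 in Müller-like cells had ratios of 0.311 (0.150 to 0.581) in cells with Xist and 0.676 (0.372 to 1.16) in cells with Y-linked UMIs, and in neurogenic cells of 0.246 (0.122 to 0.455) and 0.524 (0.274 to 0.933). In progenitor-like cells the kinds were closer, at 0.419 (0.250 to 0.683) and 0.528 (0.284 to 0.929) for Dusp10 and 0.604 (0.372 to 0.965) and 0.495 (0.247 to 0.923) for Phlda1. Spry1 in Müller-like cells was at 0.701 (0.423 to 1.12) and 0.593 (0.304 to 1.07), with both intervals including 1. The summed level in Müller-like cells had a ratio of 0.810 (0.736 to 0.890) in cells with Xist and 0.938 (0.843 to 1.04) in cells with Y-linked UMIs. Dusp4 in precursor-like cells showed the opposite order, 0.910 (0.742 to 1.11) with Xist and 0.608 (0.432 to 0.838) with Y-linked UMIs. Sex, pup and the extent of recombination cannot be told apart here.

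**Figure D4:**
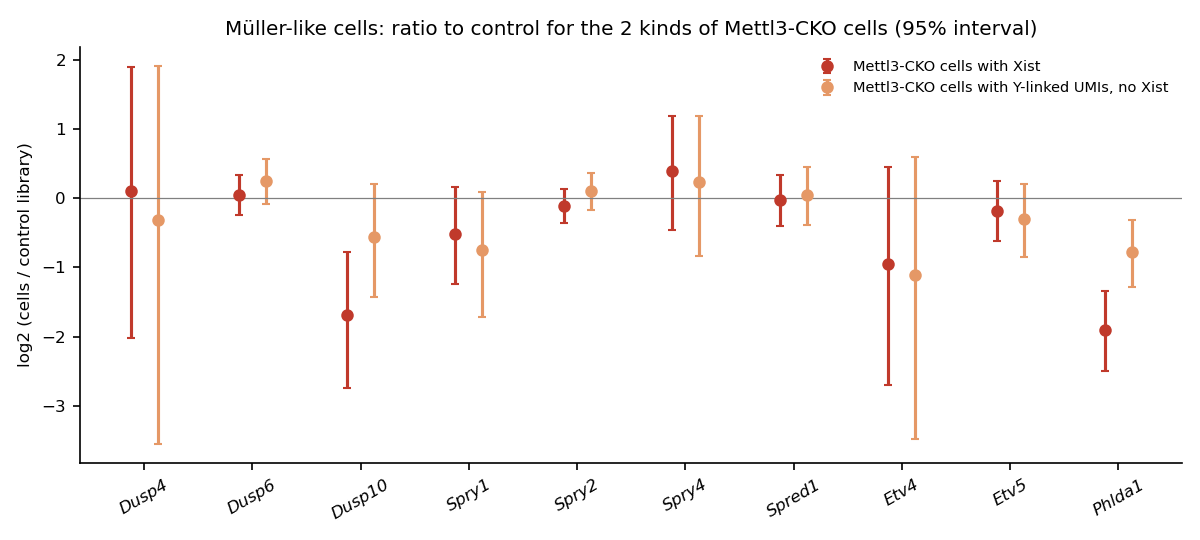
Log2 ratio to the control library (y axis) of each of the 10 genes (x axis) in Müller-like cells, for mutant cells with Xist and for mutant cells with Y-linked UMIs and no Xist, with 95% intervals. For Phlda1 both points lie below 0, at ratios of 0.268 and 0.582, while those of Dusp6, Spry2 and Spred1 lie near it.

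Müller-like cells differed in how strongly they expressed 8 m6A-tagged transcripts that the study followed (Apex1, Bcl7a, Ckap4, Nxt1, Rap2b, Sulf2, Traf4 and Zfp292), and in the mutant Phlda1, Dusp6 and Spry2 were lower in the cells with more of them. The study chose these transcripts on these libraries, so a higher sum in the mutant is no independent finding. The limit was the median control cell, at 849 CPM for the sum of the 8, with 130 control and 44 mutant cells at or below it and 129 control and 129 mutant cells above it. Phlda1 was at 130.0 CPM in the control and 93.1 CPM in the mutant at or below the limit, and at 132 and 36.2 CPM above it. The ratios were 0.717 (0.474 to 1.05) and 0.274 (0.188 to 0.390), and within the mutant the cells above the limit were at 0.389 (0.239 to 0.637) of those at or below it. In the control the same step was 1.02 (0.804 to 1.29). Progenitor-like cells, cut in the same way, had a mutant step of 0.712 (0.379 to 1.36) for Phlda1, with an interval that includes 1, and of 2.21 (1.005 to 5.53) for Dusp10, in the other direction. For Dusp6 the mutant step there was 0.777 (0.628 to 0.963), beside 1.37 (1.04 to 1.81) in the control. For Spry2 the mutant step was 1.22 (0.994 to 1.52), not lower as in Müller-like cells.

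Dusp6 and Spry2 were high in the mutant cells at or below the limit, at 248 against 149 CPM in the control for Dusp6, a ratio of 1.67 (1.27 to 2.18), and 302 against 231 CPM for Spry2, a ratio of 1.31 (1.03 to 1.65). Above the limit their ratios were 0.884 (0.718 to 1.09) and 0.860 (0.723 to 1.02). Dusp10 was lower on both sides, with ratios of 0.479 (0.165 to 1.14) on 6 mutant UMIs and 0.399 (0.233 to 0.663) on 22. Within the mutant Müller-like cells, the steps of Dusp10, at 1.18 (0.463 to 3.55), Spred1, at 1.17 (0.788 to 1.77), and Etv5, at 1.03 (0.648 to 1.68), had intervals that include 1. The sum of the 10 genes had ratios of 1.11 (0.975 to 1.27) and 0.757 (0.687 to 0.832). Several other measures moved with this cut. The mutant cells at or below the limit had a median of 41.1 glial marker UMIs per 10000 and those above it 30.9, the cells with Xist numbered 18 and 80, and Rlbp1 had ratios of 0.888 (0.809 to 0.974) and 0.516 (0.478 to 0.557). Cdkn1a, a cell cycle inhibitor looked at after its values had been seen, had 3 UMIs in mutant cells at or below the limit and 457 above it. Their part in the levels of the feedback genes was not tested.

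**Figure D5:**
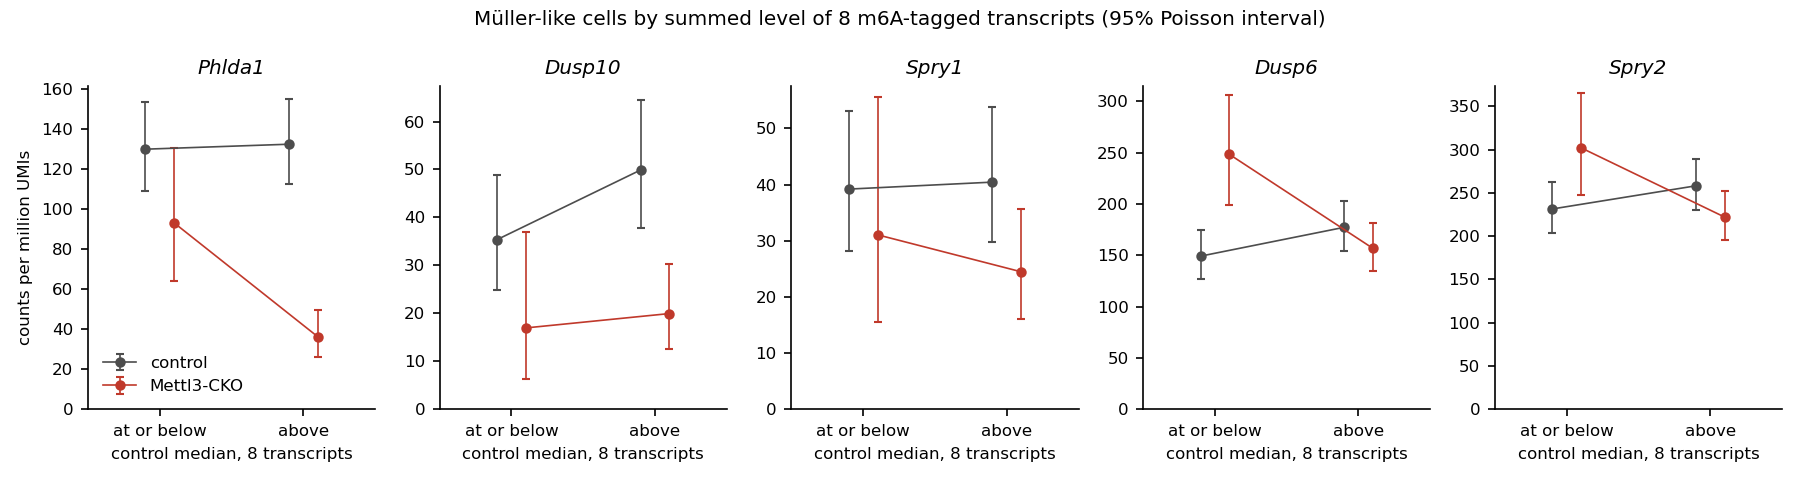
Levels in CPM (y axis, from 0) in Müller-like cells at or below and above the control median of the summed 8 m6A-tagged transcripts (x axis), with Poisson 95% intervals. Mutant Phlda1 drops from 93.1 to 36.2 CPM across the cut, while control Phlda1 stays near 132 CPM.

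The rest of the pathway was examined in 6 lists of 80 genes found in the files: ligands, receptors, adaptors and Ras, kinases, other feedback regulators, and transcription factors with early targets. In Müller-like cells 48 of them had at least 50 UMIs, of which 2 were at least 1.5-fold lower and 3 higher in the mutant, with a median log2 ratio of 0.063. These counts stand beside 4.2% lower and 8.02% higher over all genes, so they are near the background. The genes lower were Dusp8, a phosphatase of JNK and p38, from 99 to 27 UMIs with a ratio of 0.413 (0.259 to 0.638), and Etv1, the third gene of the family of Etv4 and Etv5, with a ratio of 0.574 (0.429 to 0.762). The genes higher were Il17rd, which encodes the FGF antagonist Sef, at 1.83 (1.03 to 3.28), the receptor Fgfrl1, which lacks the kinase domain, at 1.57 (0.884 to 2.81), and the Ras activator Sos2, at 1.51 (0.899 to 2.55), on 24 to 32 UMIs per library.

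Of the ligands and receptors in Müller-like cells, Fgf9 had a ratio of 1.11 (0.988 to 1.24), Fgf15 one of 0.838 (0.621 to 1.12) and Fgfr1 one of 1.11 (0.857 to 1.43). The kinases ranged from 0.784 (0.483 to 1.25) for Rps6ka3 to 1.33 (0.868 to 2.04) for the scaffold Ksr1, with Mapk3, which encodes ERK1, at 0.880 (0.643 to 1.20). Adaptors included Frs2, which links FGF receptors to Ras, at 0.822 (0.444 to 1.48) and Sos1 at 1.48 (0.955 to 2.30), while the repressor Cic and the early gene Ier3 were at 1.22 (0.873 to 1.71) and 0.720 (0.394 to 1.27). The summed list of other feedback regulators had a ratio of 0.828 (0.761 to 0.900), while the median log2 ratio of its 8 genes with at least 50 UMIs was 0.14, on the other side of 0. Dusp1, a phosphatase that answers stress as well as growth factors, had a ratio of 0.695 (0.608 to 0.792).

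Progenitor-like cells of the mutant had more Fgf15 and Fgfr1, while 0 of the 10 feedback genes were 1.5-fold higher. Fgf15, an FGF made by retinal progenitors, went from 97.3 to 158 CPM, a ratio of 1.63 (1.36 to 1.95), and Fgfr1 from 39.7 to 63.9 CPM, a ratio of 1.61 (1.21 to 2.16). Etv1 was again lower, at 0.539 (0.393 to 0.739). Of 48 pathway genes counted well enough there, 1 was lower and 6 were higher by 1.5-fold, beside 2.34% and 7.73% of all genes, with a median log2 ratio of 0.17. In neurogenic cells Fgf15 had a ratio of 2.98 (1.73 to 5.37) on 18 and 58 UMIs, and 3 of 41 genes were lower and 2 higher, beside 3.83% and 6.79% of all genes, with a median of -0.085. Precursor-like cells had 0 lower and 0 higher of 46, beside 2.27% and 4.25% of all genes, although Dusp8, well counted there at 175 and 119 CPM, had a ratio of 0.682 (0.588 to 0.789), just short of the limit.

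Dissociation with papain can itself raise early response genes, so a list of 15 of these was measured in the same cells. Their summed ratio was 0.977 (0.958 to 0.995) in Müller-like, 1.05 (1.03 to 1.07) in progenitor-like, 0.909 (0.888 to 0.930) in neurogenic and 0.933 (0.912 to 0.954) in precursor-like cells. Of 12 with at least 50 UMIs in Müller-like cells, 0 were at least 1.5-fold lower and 1, Btg2, was higher, at 1.62 (1.51 to 1.74), while Nr4a1 was at 0.673 (0.349 to 1.24). Sums of markers of other cell types in Müller-like cells of the libraries were 1107 and 1070.5 CPM for 9 neurogenic markers, with Dll4 at 0 in both, 113 and 121 CPM for 12 cell cycle markers, 119 and 106 CPM for 8 rod markers, 620.2 and 634 CPM for 7 amacrine markers, 0.905 and 5.49 CPM for 6 microglia markers, with Csf1r at 0 in both, and 9.51 and 10.3 CPM for 4 astrocyte markers, with Gfap at 0 in both. The 4 endothelial and mural markers summed to 669 CPM (635 to 704) in the control and 764 CPM (719.7 to 810.2) in the mutant, with intervals that do not overlap and Rgs5 at 0 in both, and the 7 cone markers to 63.8 and 81.6 CPM. The part of these in the results was not tested.

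Over 18 points, the classes in each library, the genes with the pattern most like the mean of the 10 standardised genes were Nav2 (Pearson's r = 0.977), Ncald (0.974), Ptn (0.969), Sox3 (0.966) and Sorcs1 (0.965), out of 8863 genes. The points share libraries and differ in depth, so these values are a description. Among the 10 genes themselves, Spry4 and Dusp10 lay closest to their common mean (r = 0.870 and 0.851) and Dusp4 farthest from it (r = -0.037).

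Phlda1, Dusp10 and Spry4 overlap genes on the other strand, and whether the counting used the strand is not given in the sources used here. For Spry4 these are Gm27369 and Gm27804, whose counts are not given here. The partner of Phlda1, Gm28592, had 0 UMIs in both libraries. The partner of Dusp10, 1700056E22Rik, had 17 and 13 UMIs in Müller-like cells and 76 and 87 over all cells.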

How the data were processed

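Retinal cells of 1 control and 1 Mettl3-CKO library were captured with 10x Chromium 3′ v3.1 chemistry. Per the labels and the study's methods, the authors cleaned reads with fastp, mapped to GRCm38 (mm10) and produced UMI counts per gene and cell with Cell Ranger 3.1.0, and used Seurat 3.1 for their own clusters. What they deposited is UMI counts without normalization. The matrices used here end early, giving 3994 complete cells of 5995 control barcodes and 3109 of 6992 mutant barcodes, and other barcodes were not analysed here. The libraries share 5 barcodes. The study's cell filter (over 200 genes, under 20% mitochondrial UMIs) would remove 237 and 86 cells and was run as an alternative.

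A cell joined a class when its markers' UMIs reached a minimum (10 for Müller, 8 for progenitor and 5 for neurogenic markers, and 5 each of Neurod4 and Otx2 for precursors). Markers of rods, cones, bipolar cells, microglia, astrocytes and vessels had to stay low. Neurogenic cells had no upper limit on Müller or precursor markers, and progenitor-like cells none on Müller or neurogenic markers. The median neurogenic cell held 29 (control) and 32 (mutant) UMIs of Neurod4 and Otx2, beside 9 and 10 of its own markers. The median progenitor-like cell held 16.5 and 15 Müller marker UMIs, above the Müller minimum. Markers that several classes carried, such as Apoe, were left out of the sums that define classes after the counts were seen, but kept in the summed marker levels. Class totals of UMIs were expressed as CPM, with 13 mitochondrial genes left out of totals. Levels carry exact Poisson, ratios exact conditional binomial and shares of cells exact Clopper-Pearson intervals, all at 95%. These cover counting error only, and a count of 0 was set to 3. With 1 library per group no p-value was computed. Genes with at least 50 UMIs were compared with a limit of 1.5-fold. The ratio step was tested on simulated counts. The 10 genes, the lists and the markers were chosen with earlier results of these data known. Named are all 10 genes, the 3 genes of each pathway list that differed most in Müller-like cells, the 5 genes most like the 10 in pattern, class markers, Mettl3 and sex-linked genes. Doublets were predicted from simulated pairs of cells of the same library (3.68% of control and 7.27% of mutant cells), kept in the main results and left out in an alternative. Leiden classes used leidenalg 0.10.2, and the rest numpy 2.4.6, scipy 1.17.1 and pandas 2.3.3 in Python 3.11.15.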

Additional observations from a re-analysis of the deposited data

Results flagged for a closer look

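Xist, which is in none of the comparisons above by genotype, was at 1544 CPM over all Mettl3-CKO cells and at 1.53 CPM over all control cells. It was singled out as a signal outside the main measurement that lies above its level in the control library. The levels of the 10 genes in mutant cells with Xist and in those with Y-linked UMIs are given in the report.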

How the results depend on the processing

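No paired analysis was possible because each group is 1 library. The log2 ratio of the summed 10 genes in Müller-like cells, -0.23, moved to -0.052 with cells thinned to 2000 UMIs, -0.093 with only mutant cells that had Y-linked UMIs, and -0.041 without Phlda1 and Dusp10, an alternative chosen after seeing the data, and over all alternatives it lay between -0.30 and -0.041. The count of genes at least 1.5-fold lower moved, with thinned cells, from 3 to 1 in Müller-like, from 2 to 0 in progenitor-like and from 2 to 0 in neurogenic cells, where fewer genes reach 50 UMIs. With a limit of 2-fold it was 1 in progenitor-like and 1 in neurogenic cells, and with Leiden classes 1 in neurogenic cells. In Müller-like cells Phlda1 and Dusp10 met the 2-fold limit, while Spry1, at a ratio of 0.654, did not. Over all alternatives the count in Müller-like cells lay between 1 and 4. In precursor-like cells, from 0, it was 1 with cells that had Y-linked UMIs and 2 with no minimum of UMIs. Spred1 in neurogenic cells reversed to 0.084 with thinned cells. The cause of these was not tested beyond the settings named. For single genes, 432 values over the alternatives moved by less than their counting interval, 17 moved by more and 1 reversed. Phlda1 in Müller-like cells ranged from -1.94 (Leiden classes) to -0.78 (mutant cells with Y-linked UMIs), and Dusp10 from -1.69 to -0.54, so both stayed lower under every alternative run. The median log2 ratio turned above 0 with thinned cells in Müller-like (0.074) and progenitor-like (0.049) cells and with mutant cells that had Y-linked UMIs in precursor-like cells (0.18). Depth limits Etv4, Spry4 and, outside precursor-like cells, Dusp4, which had few UMIs and wide intervals.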

Other observations

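In amacrine-like cells (24 control and 18 mutant) Phlda1 had 22 and 5 UMIs, a ratio of 0.340 (0.100 to 0.919), while Dusp10 was at 50.7 and 50.5 CPM, a ratio of 0.996 (0.353 to 2.65). In bipolar-like cells (130 and 44), Spry2 was at 46.1 CPM in the control and 95.3 CPM in the mutant, a ratio of 2.07 (1.27 to 3.32), and Dusp6 at 43.2 and 86.1 CPM, a ratio of 1.99 (1.19 to 3.27). Both intervals lie above 1, as does that of Spred1 in rod-like cells, at 1.30 (1.02 to 1.65). That of Dusp6 in microglia-like cells does too, but on 2 UMIs in 2 control cells and 13 UMIs in 3 mutant cells. The interval takes no account of UMIs that share a cell. In cone-like cells all 10 genes were at or below 37.1 CPM in both libraries.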
